A study of Rattus norvegicus with 5 samples.

Results

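Nuclear receptors are transcription factors that bind DNA and, for many of them, small lipophilic ligands. This account covers those receptors, their coactivators and corepressors, and the liver transcription factors of the FOXA and C/EBP families, in rat liver. The members were taken from a fixed list of 42 genes, and those with a probe set of their own under GEO's platform annotation were used. There were 30, among 7589 genes so measured. The other 12 were not analysed here, namely Nr1d2, Rora, Rarb, Rarg, Esr1, Nr6a1, Cebpd, Ncoa1, Ncoa3, Ncor1, Nrip1 and Sirt1. Each of the 30 had a single probe set, and each exceeded the lower quartile of at least 1 array.

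A receptor held by corepressors such as NCOR1, with the deacetylase HDAC3, keeps its target genes low, and a bound agonist exchanges these for coactivators of the NCOA family. Many receptors bind as heterodimers with a retinoid X receptor. In hepatocytes HNF4A, the FOXA factors and C/EBP alpha hold the liver programme, and receptors for thyroid hormone, glucocorticoids, oxysterols, retinoic acid and fatty acids adjust lipid and glucose metabolism.

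Livers came from 4-month-old males on standard chow. PD is the polydactylous rat, the progenitor strain. PD.SHR4 (PD.SHR4a in the series text) is a congenic strain, PD in background, that received part of chromosome 4 of SHR, the spontaneously hypertensive rat, and the series title describes such strains as Cd36-deficient. RNA of 8 males per strain was prepared, and the labelled cDNA was pooled by strain, then hybridised to 3 PD and 2 PD.SHR4 arrays. The labels do not tie an array to particular rats, so the p-values speak only of spread among arrays, which may be technical. In pooled bulk tissue, fewer cells of a type and less RNA per cell cannot be told apart. Values are log2 expression values, and differences are PD.SHR4 minus PD.

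Over all probe sets the correlation was 0.988 to 0.994 within a strain and 0.986 to 0.987 between strains. Cd36, on a probe set annotated to both Cd36 and Cd36l1, measured 7.35 to 7.93 in PD and 4.18 and 4.85 in PD.SHR4. Alb, the albumin gene of hepatocytes, measured 13.2 to 13.3 in every array.

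None of the 30 members differed between the strains at an adjusted p under 0.05 (limma, Benjamini-Hochberg over all 8797 probe sets). Of all probe sets, 0.932% did. At an unadjusted p under 0.05 there were 4 members, which is 13.3% of the 30, against 13.8% of all probe sets, so the members' share was near the background. These 4 were Foxa3, with the higher level in PD.SHR4, and Foxa1, Rara and Rxrg, with the lower. The median log2 difference of the members was 0.072, against 0.0030 over all genes with a probe set of their own, and it was 0.012 without PD.SHR4 array 2. The median size of the difference, whatever its sign, was 0.18 for the members and 0.15 for all those genes.

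For most members the arrays bounded the difference closely. The 95% interval of the moderated fit lay within 1.5-fold in either direction for 20 of 30 members, and for 51.7% of all probe sets. A fitted difference of at least 1.5-fold was seen for 3 members, Foxa3, Rara and Rxrg. That is 10% of the 30, against 7.68% of all probe sets. A p-value that misses the threshold does not show that a gene was equal in the strains, and the interval gives the range that the arrays allow.

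**Figure D1:**
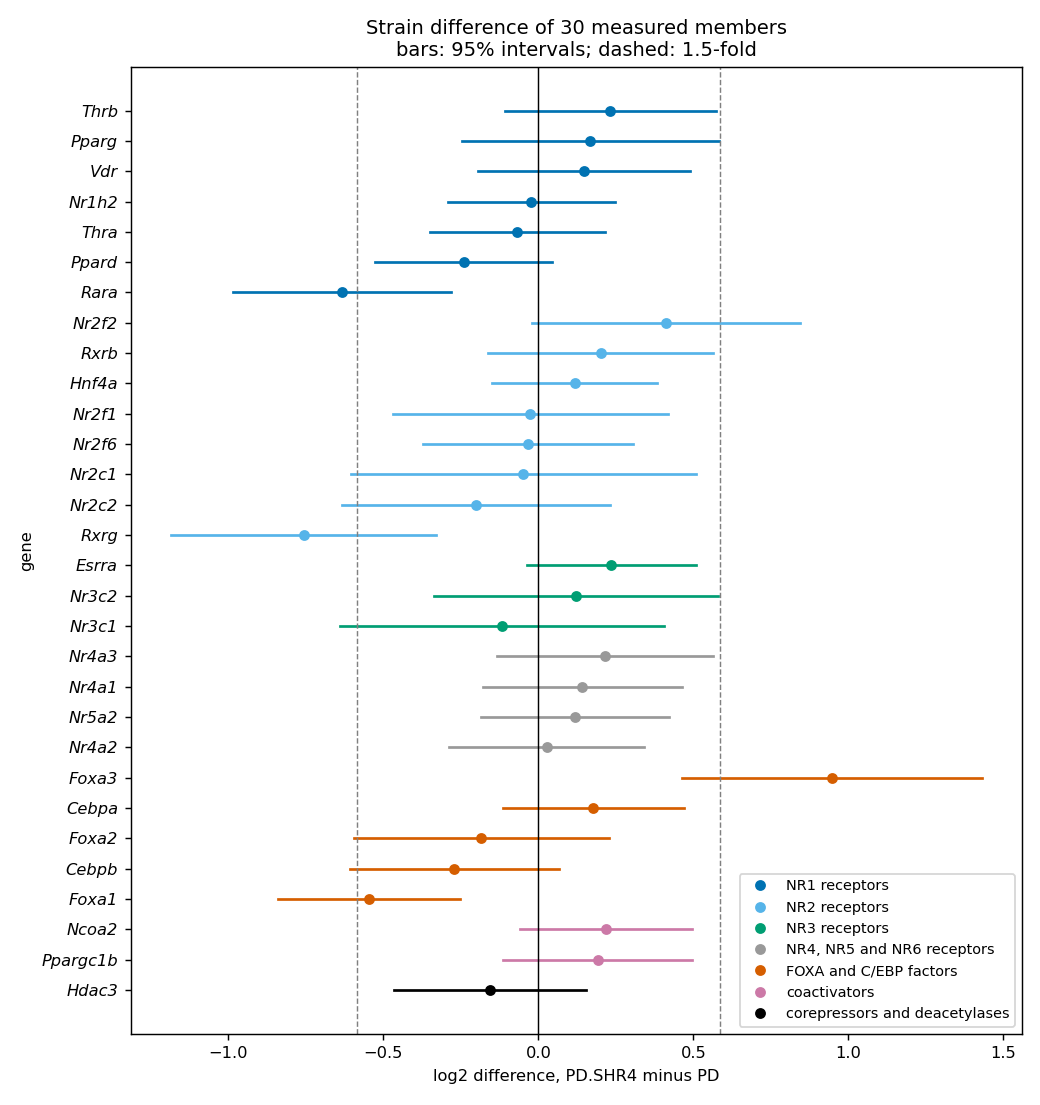
The log2 difference, PD.SHR4 minus PD (x axis), is plotted for each of the 30 measured members (y axis, coloured by role), with bars for 95% intervals of the moderated fit and dashed lines at 1.5-fold. Foxa3 at 0.95, Foxa1 at -0.55, Rara at -0.63 and Rxrg at -0.76 stand away from 0, and 20 intervals lie between the dashed lines.

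The FOXA factors open compacted chromatin at liver enhancers, and the values of Foxa3 and Foxa1 lay on opposite sides of 0. Foxa3 measured 7.15, 6.59 and 6.81 in PD and 7.92 and 7.67 in PD.SHR4. Both PD.SHR4 arrays lay above all PD arrays. The log2 difference was 0.95 ± 0.20 (SE; 95% interval 0.46 to 1.43), a 1.93-fold higher level that did not pass (limma, unadjusted p = 0.00312, adjusted p = 0.106).

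Foxa1, the founding member of the family, measured 7.44, 7.54 and 7.44 in PD and 6.85 and 7.001 in PD.SHR4. All PD arrays were above both PD.SHR4 arrays. The log2 difference was -0.55 ± 0.12 (SE; limma, adjusted p = 0.119), a 1.46-fold lower level. Foxa2, which also acts in bile acid and glucose metabolism, measured 6.99, 7.06 and 6.88 in PD and 6.57 and 7.02 in PD.SHR4. Its arrays overlapped, and PD.SHR4 array 1 was the lowest of the 5. The log2 difference of Foxa2 was -0.18 ± 0.17 (SE; adjusted p = 0.727), and it was 0.041 without that array.

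Within each array the value of Foxa3 minus that of Foxa1 was -0.29, -0.95 and -0.62 in PD and 1.08 and 0.67 in PD.SHR4. That value shows an unequal change of the probe sets and not which of them changed, and the pair was chosen after its values were seen, so it was not tested.

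Retinoic acid acts through the RAR receptors, which bind DNA as partners of the RXR receptors. Rara, the alpha retinoic acid receptor, measured 7.19, 7.33 and 6.99 in PD and 6.59 and 6.48 in PD.SHR4. The strains did not overlap. The log2 difference was -0.63 ± 0.14 (SE; 95% interval -0.99 to -0.28), a 1.55-fold lower level (limma, adjusted p = 0.128).

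Rxrg, the gamma retinoid X receptor, measured 7.83, 7.81 and 8.26 in PD and 7.26 and 7.16 in PD.SHR4. PD array 3 was the highest, and both PD.SHR4 arrays lay below every PD array. The log2 difference was -0.76 ± 0.17 (SE; limma, adjusted p = 0.132), and it was -0.61 without PD array 3. Rxrb, the beta form, measured 5.76, 5.88 and 5.50 in PD against 5.92 and 5.91 in PD.SHR4, a log2 difference of 0.20 ± 0.15 (SE; adjusted p = 0.648). Rxrb therefore had a value on the other side of 0 from Rxrg, and its interval, -0.16 to 0.57, includes 0. Rxra, the alpha form and not a member, was brighter than both. It measured 9.67, 9.70 and 9.59 in PD and 9.87 and 9.93 in PD.SHR4. Its log2 difference was 0.24 ± 0.11 (SE; limma, adjusted p = 0.429), and both PD.SHR4 arrays lay above all PD arrays.

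**Figure D2:**
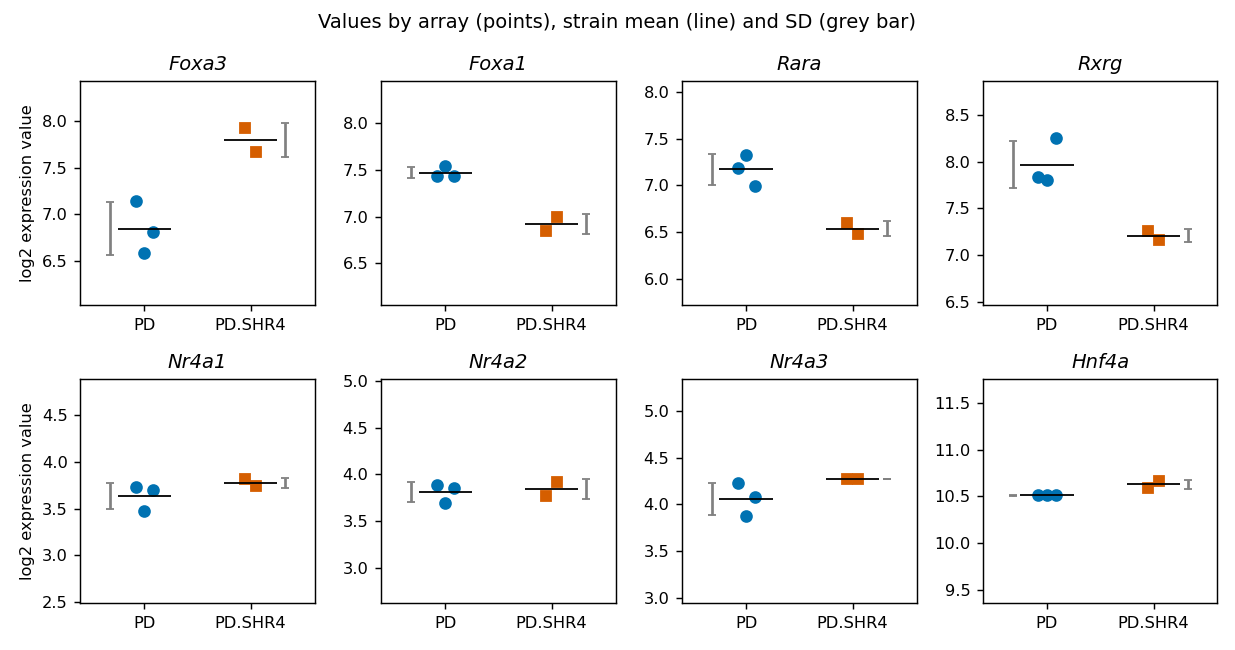
The log2 expression value (y axis, each panel spanning the same range of log2 units) is shown for each array of PD (circles) and PD.SHR4 (squares), with strain means as lines and SDs as grey bars, for 8 members. The strain means differ by more than the SD of either strain in every panel except that of Nr4a2. For the 3 Nr4a genes and Hnf4a the means differ by at most 0.21.

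Promoter windows of the 4 members with the smallest p were looked up in RefSeq (assembly GRCr8), along with those of the other members, to see what their sequence holds near the start site. At least 1 window was found for 24 of the 30 measured members, 28 windows in all. Foxa1, Ppard, Nr2f2, Nr3c2, Nr4a3 and Ncoa2 had no window in that table. The 250 bases before the start are shown 5′ to 3′ for Foxa3 (chr1:87799486-87799735, minus strand), Rara (chr10:84411217-84411466, plus strand) and Rxrg (chr13:82276237-82276486, plus strand). Nr5a2 (chr13:50984939-50985188, minus strand) is added as the single measured member with the core that nuclear receptors bind. Capitals mark the motifs searched for.
Foxa3: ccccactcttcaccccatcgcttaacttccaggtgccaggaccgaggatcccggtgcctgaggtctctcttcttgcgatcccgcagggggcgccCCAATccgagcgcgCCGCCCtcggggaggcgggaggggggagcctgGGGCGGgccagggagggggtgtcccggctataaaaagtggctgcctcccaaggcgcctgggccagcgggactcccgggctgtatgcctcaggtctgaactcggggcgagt
Rara: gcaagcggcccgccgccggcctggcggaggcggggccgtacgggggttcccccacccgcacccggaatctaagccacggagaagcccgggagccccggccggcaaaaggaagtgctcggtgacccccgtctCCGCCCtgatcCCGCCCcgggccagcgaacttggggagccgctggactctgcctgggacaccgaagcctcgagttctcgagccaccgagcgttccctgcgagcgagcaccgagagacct
Rxrg: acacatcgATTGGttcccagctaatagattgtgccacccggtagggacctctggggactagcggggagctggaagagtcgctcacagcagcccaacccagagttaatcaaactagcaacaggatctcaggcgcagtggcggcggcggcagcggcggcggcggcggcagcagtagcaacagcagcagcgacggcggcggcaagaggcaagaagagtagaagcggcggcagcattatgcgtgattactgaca
Nr5a2: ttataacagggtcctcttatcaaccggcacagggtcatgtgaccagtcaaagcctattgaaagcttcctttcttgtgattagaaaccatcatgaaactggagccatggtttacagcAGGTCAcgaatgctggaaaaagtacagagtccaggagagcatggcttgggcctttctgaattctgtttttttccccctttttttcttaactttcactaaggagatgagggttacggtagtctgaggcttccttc

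The windows of Foxa3 and Rara are rich in G and C, at 69.6% and 72.4%, against 60.8% for Rxrg and 44.4% for Nr5a2. Each of the first pair holds 2 GC boxes (GGGCGG on either strand), the sequence bound by SP1. Of the 28 windows of members, 19 hold a GC box, a share of 67.9%, against 30.5% of 33469 windows of all genes. The CCAAT box (CCAAT on either strand) is in the windows of Foxa3 and Rxrg, and in 21.4% of the members' windows against 34.0% of all. The nuclear receptor core AGGTCA, in the window of Nr5a2 alone, is in 14.1% of all windows. The E-box CACGTG, the cAMP response element TGACGTCA and the FOXA cores TGTTTAC and TGTTTGC, on either strand, were in no member's window and in 5.59%, 1.59%, 3.21% and 4.16% of all windows. No motif counted here overlaps another in the 4 windows printed. A match is only a run of letters, and no binding was measured.

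Among the other receptors of the NR1 class, which includes the receptors for thyroid hormone, fatty acids, oxysterols and vitamin D, none had an unadjusted p under 0.05. Thrb, the main thyroid hormone receptor of liver, measured 7.28, 7.58 and 7.32 in PD and 7.62 and 7.63 in PD.SHR4. Its log2 difference was 0.23 ± 0.14 (SE; adjusted p = 0.553), and the strains did not overlap, although PD array 2 came close to the PD.SHR4 arrays. Thra, the other thyroid hormone receptor, measured -0.068 ± 0.11 (SE) as a difference, with overlapping arrays.

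Ppard, a fatty acid receptor with wide tissue distribution, measured 6.30, 6.39 and 6.45 in PD and 6.18 and 6.11 in PD.SHR4, and its log2 difference was -0.24 ± 0.12 (SE; adjusted p = 0.449). Pparg, the adipocyte receptor, and Vdr, the vitamin D receptor, had low signals, 3.21 to 3.69 and 2.90 to 3.25 across the 5 arrays, and their arrays overlapped. Nr1h2, the oxysterol receptor LXR beta, had one of the narrowest intervals of all members, -0.29 to 0.25 around a log2 difference of -0.022. Pparg and Nr2c2 are the 2 measured members on chromosome 4, per RefSeq, and neither had arrays that separated the strains. The sources used here give no bounds of the SHR segment.

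In the NR2 class, Hnf4a, the receptor that holds much of hepatocyte gene expression in place, was nearly constant in PD at 10.51, 10.51 and 10.52. It measured 10.59 and 10.66 in PD.SHR4. The arrays did not overlap, but the log2 difference was only 0.12 ± 0.11 (SE; 95% interval -0.15 to 0.38; adjusted p = 0.732). The SE comes from the moderated fit, which draws on the spread of all probe sets, and it is larger than the SD of 0.0034 among the PD arrays.

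Nr2f2, the orphan receptor COUP-TFII, measured 8.11, 7.63 and 7.81 in PD and 8.36 and 8.17 in PD.SHR4. The log2 difference was 0.41 ± 0.18 (SE; 95% interval -0.021 to 0.84), the member nearest outside an unadjusted p of 0.05 (limma, unadjusted p = 0.0588, adjusted p = 0.391). Its relatives Nr2f1 and Nr2f6 measured -0.026 and -0.035, and the testicular receptors Nr2c1 and Nr2c2 -0.048 and -0.20, all with overlapping arrays. The spread among PD arrays was wide for Nr2c1, at 5.41, 6.09 and 5.51.

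In the steroid receptor class, Esrra, the estrogen-related receptor that drives mitochondrial genes, measured 6.25, 6.16 and 6.18 in PD and 6.46 and 6.41 in PD.SHR4. The arrays did not overlap, and the log2 difference was 0.24 ± 0.11 (SE; adjusted p = 0.444). Nr3c1, the glucocorticoid receptor, measured 8.12, 8.79 and 8.32 in PD and 8.26 and 8.33 in PD.SHR4. Both PD.SHR4 arrays lay inside the PD range, and the log2 difference was -0.12 ± 0.21 (SE; 95% interval -0.64 to 0.40). Nr3c2, the mineralocorticoid receptor, measured 0.12 ± 0.19 (SE) as a difference, also with overlap.

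The NR4A receptors are orphan receptors of the immediate-early class, induced within a short time of many stimuli. Nr4a1 measured 3.73, 3.48 and 3.70 in PD and 3.81 and 3.74 in PD.SHR4. Nr4a2 measured 3.89, 3.69 and 3.86 in PD and 3.76 and 3.92 in PD.SHR4. Nr4a3 measured 4.23, 3.88 and 4.07 in PD and 4.27 in both PD.SHR4 arrays. Only Nr4a2 overlapped between the strains.

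The log2 differences of Nr4a1, Nr4a2 and Nr4a3 were 0.14, 0.027 and 0.21, with adjusted p of 0.730, 0.961 and 0.612 (limma). Their intervals ended at 0.46, 0.34 and 0.56, each below 1.5-fold. All 3 signals lay below the median of every array (5.21 to 5.38), and RMA narrows differences of dim probe sets. The bounds therefore hold for these processed values only. Egr1, another immediate-early gene, rose by 2.96 ± 0.26 (SE; limma, adjusted p = 0.0206) in the same arrays, and whether Egr1 and the NR4A genes differed in their response was not tested. The call of Egr1 was lost when PD array 1 or a PD.SHR4 array was left out. Of 13 measured immediate-early genes outside the family, Egr1 alone rose and none fell, against 0.273% and 0.659% of all probe sets. The list's median was 0.14. That median dropped to 0.078, 0.042 and 0.059 when PD array 1, PD array 3 and PD.SHR4 array 2, in that order, were left out. Nr5a2, the receptor LRH-1 of bile acid and cholesterol genes, had a log2 difference of 0.12 ± 0.12 (SE; adjusted p = 0.771), with overlap at PD array 2.

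C/EBP alpha and C/EBP beta are leucine zipper factors, the first tied to hepatocyte identity and the second to the acute phase and regeneration. Cebpa measured 8.47, 8.59 and 8.53 in PD and 8.79 and 8.63 in PD.SHR4, a log2 difference of 0.18 ± 0.12 (SE; adjusted p = 0.614). Cebpb measured 7.94, 8.06 and 8.20 in PD and 7.89 and 7.70 in PD.SHR4, a log2 difference of -0.27 ± 0.14 (SE; adjusted p = 0.473). Neither overlapped between the strains, and their values had opposite signs.

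Among coregulators, Ncoa2, a p160 coactivator, measured 7.77, 7.85 and 7.79 in PD and 7.97 and 8.07 in PD.SHR4. The log2 difference was 0.22 ± 0.11 (SE; adjusted p = 0.485). Ppargc1b, the PGC-1 beta coactivator of mitochondrial and lipogenic genes, measured 5.72, 5.56 and 5.55 in PD and 5.87 and 5.73 in PD.SHR4. Its log2 difference was 0.19 ± 0.12 (SE; adjusted p = 0.604), and PD array 1 lay just under the lower PD.SHR4 array. Hdac3, the corepressor deacetylase, overlapped between the strains at a log2 difference of -0.16 ± 0.13 (SE; adjusted p = 0.682).

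Over all members, PD and PD.SHR4 arrays were fully separate in 16 of 30, against 31.9% of all probe sets and 35.3% of those above the lower quartile of at least 1 array. Of the 16, 11 were higher in PD.SHR4 and 5 lower, where 14.8% of all probe sets were higher and 17.1% lower without overlap. The counts were 12 and 5 after each array was centred on its median, and 9 and 4 after quantile normalisation once more. Under these scalings 34.5% and 35% of all probe sets, in that order, did not overlap. Values were above 0 in 16 of 30 members and in 20 under either of those scalings, against 50% of all probe sets without such scaling. The median difference of all probe sets also moved, from 0.00020 to 0.054 after centring and 0.020 after quantile normalisation once more. The members whose sign turned under a scaling, Thra, Nr1h2, Nr2c1, Nr2f1 and Nr2f6, all had differences within 0.1 of 0.

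**Figure D3:**
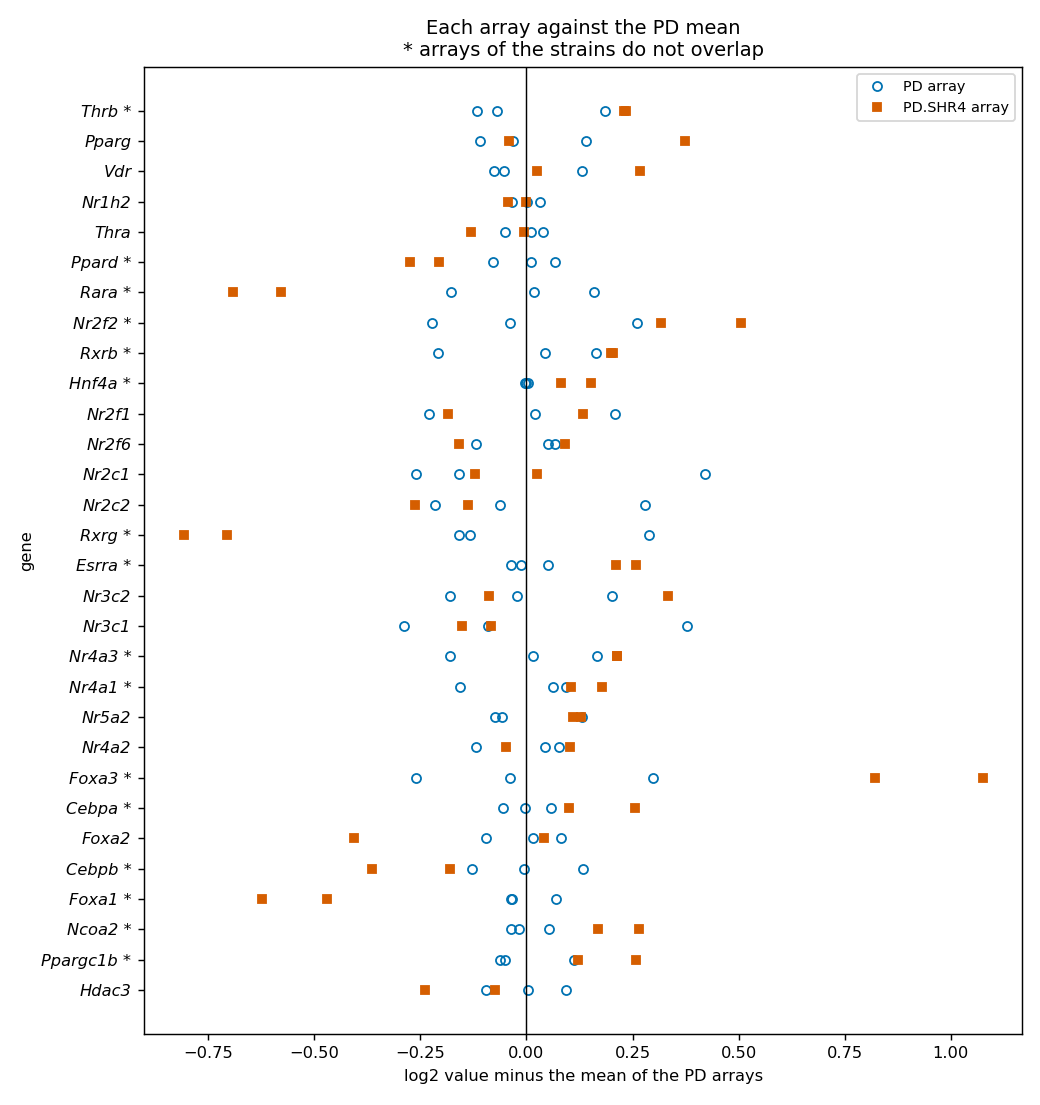
The value of each array minus the mean of the PD arrays (x axis, log2 units) is shown for the 30 measured members (y axis), with PD arrays as open circles and PD.SHR4 arrays as squares, and a star where the strains do not overlap. There are 16 starred members, 11 with PD.SHR4 higher and 5 with PD.SHR4 lower, and Foxa3 has the largest difference among the members.

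The rest of the receptor superfamily was read from a list of 19 other receptors, of which 13 were measured. Nr1i3, the xenobiotic receptor CAR, rose by 1.84 ± 0.22 (SE; limma, adjusted p = 0.0392), 12 did not pass and none fell, against 0.273% of all probe sets that rose and 0.659% that fell. Ppara, the fatty acid receptor of liver, measured 1.99 ± 0.31 (SE; adjusted p = 0.0606), Nr1d1, the clock repressor REV-ERB alpha, 1.43 ± 0.42 (SE; adjusted p = 0.216) and Nr1i2, the xenobiotic receptor PXR, 0.70 ± 0.14 (SE; adjusted p = 0.105). The list's median was 0.24, and it was 0.10 without PD array 3. The call of Nr1i3 was lost when PD array 1, PD array 3 or a PD.SHR4 array was left out, and 2 receptors rose under either scaling above. Of the 13, 5 had both PD.SHR4 arrays above all PD arrays, among them the 4 named here. Another 2, Nr1h4 (-0.32) and Nr1h3 (-0.10), had both below. That is 53.8% without overlap, against 31.9% of all probe sets. The 4 have the smallest p of the list, a choice that favours separate arrays.

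Of 40 other coregulators, 10 were measured, none passed and 1 had an unadjusted p under 0.05, with a median of -0.062. That is 10% with such a p, against 13.8% of all probe sets. Pnrc1, a small coactivator, had a log2 difference of -0.96 ± 0.19 (SE; adjusted p = 0.0997). Of 20 other liver transcription factors, 8 were measured, none passed and 4 had an unadjusted p under 0.05, which is 50% against 13.8%. Their median was 0.065, and it was -0.010 without PD array 1. Xbp1, the factor of the unfolded protein response, measured 0.75 ± 0.13 (SE; adjusted p = 0.0804), Onecut1, a hepatocyte nuclear factor, -0.89 ± 0.19 (SE; adjusted p = 0.113), and Creb3l3, a liver membrane-bound factor, 0.58 ± 0.14 (SE; adjusted p = 0.161). In the last list 1 gene rose under either scaling.

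Lists of genes known as targets were set beside their receptors. Of all probe sets, 0.273% rose and 0.659% fell. Of 5 measured targets of the retinoic acid receptors, Rarres1, a retinoid-induced gene, fell by 0.79 (SE 0.11; limma, adjusted p = 0.0489), and the other 4 were not called. The transglutaminase Tgm2 measured -0.54 ± 0.18 (SE), Lrat, which esterifies retinol, -0.75 ± 0.32 (SE), and Cyp26a1, which degrades retinoic acid, -0.29 ± 0.25 (SE). Crabp2, the remaining target, measured 0.041 and lay below the lower quartile in each array. Lrat is also among the stellate cell markers read below. The median of the 5 targets was -0.54 where Rara measured -0.63. Rarres1 did not pass when any array was left out (adjusted p 0.0675 to 0.378), under either scaling or with the replicate block (adjusted p = 0.0863).

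Of 13 measured glucocorticoid receptor targets none passed, and 5 had an unadjusted p under 0.05, which is 38.5% against 13.8% of all probe sets. The phosphatidate phosphatase Lpin1 measured -1.10 ± 0.25 (SE), the glucose-6-phosphatase G6pc1 -1.17 ± 0.31 (SE), the tyrosine aminotransferase Tat -0.61 ± 0.21 (SE) and the chaperone Fkbp5 0.69 ± 0.26 (SE). The targets' median was -0.61, while Nr3c1 measured -0.12. That median was -0.31 without PD array 2 and -0.24 without PD.SHR4 array 1.

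Of 9 measured HNF4A targets none passed and 0 had an unadjusted p under 0.05. Their median was -0.015, and it was above 0 under both scalings and without PD array 2, while Hnf4a measured 0.12. The ornithine transcarbamylase Otc measured -0.40 ± 0.19 (SE) and the sterol hydroxylase Cyp8b1 0.59 ± 0.29 (SE). Of 11 thyroid hormone targets none passed and 1 had an unadjusted p under 0.05, which is 9.09% against 13.8% of all probe sets. Their median was 0.055, and 1 rose without PD array 1. Leaving out PD arrays 1, 2 and 3 in turn gave medians of 0.030, 0.12 and 0.18, and leaving out PD.SHR4 arrays 1 and 2 gave 0.019 and 0.092. The carnitine palmitoyltransferase Cpt1a, of mitochondrial fatty acid import, measured 1.37 ± 0.28 (SE; adjusted p = 0.103), and Thrsp, a lipogenic protein that thyroid hormone induces, -0.32 ± 0.20 (SE).

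Of 9 LXR targets, Abcg5, a sterol transporter subunit, rose by 2.56 ± 0.17 (SE; limma, adjusted p = 0.00755), and the other 8 were not called. The desaturase Scd measured -4.35 ± 0.68 (SE; adjusted p = 0.0606), the other transporter subunit Abcg8 0.96 ± 0.14 (SE; adjusted p = 0.0514) and the acyltransferase Lpcat3 -0.60 ± 0.21 (SE). The list's median was 0.047 and Nr1h2 measured -0.022. Nr1h3, the receptor LXR alpha, is itself on this target list and is brighter than Nr1h2. It measured -0.10 ± 0.11 (SE; limma, adjusted p = 0.787), with arrays that did not overlap. The counts were 2 rises after quantile normalisation once more, and 2 rises and 1 fall after median centring. Abcg5 did not pass without either PD.SHR4 array.

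Of 8 measured targets of PPAR gamma and PPAR delta, 2 fell, Pdk4, a kinase that blocks pyruvate oxidation (-1.40 ± 0.18 SE; adjusted p = 0.0448), and Angptl4, a lipoprotein lipase inhibitor (-1.89 ± 0.25 SE; adjusted p = 0.0457). The lipid droplet protein Plin2 measured -0.69 ± 0.14 (SE; adjusted p = 0.102), and Cpt1a, on this list too, 1.37 ± 0.28 (SE; adjusted p = 0.103), the opposite direction. Apart from Pdk4 and Angptl4 the list had no call, and 4 of the 8 had values above 0. The median was -0.0082, and it was above 0 after centring and without PD array 1, where 1 target rose and none fell. Ppard measured -0.24 and Pparg 0.17. Ppara, the other PPAR and not a member, measured 1.99. That is opposite in sign to Pdk4, Angptl4 and Plin2, and the same in sign as Cpt1a. Which receptor acts on these genes here was not tested. The call of Pdk4 was lost when PD array 1, PD array 3 or a PD.SHR4 array was left out, and that of Angptl4 when any array was.

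Of 12 targets of ERR and PGC-1, Pdk4 alone fell and 11 did not pass, with Acadm, a fatty acid dehydrogenase, at 0.41 ± 0.12 (SE; adjusted p = 0.212) and a median of -0.013 that was above 0 under both scalings. Esrra measured 0.24 and Ppargc1b 0.19. Of 4 vitamin D targets none passed, 0 had an unadjusted p under 0.05, and the median was 0.14, while Vdr measured 0.15. Without PD.SHR4 array 1 these were 0.069 and 0.27, and without PD.SHR4 array 2 they were 0.16 and 0.026. Calb1 and S100g, calcium-binding proteins on this list, lay below the lower quartile in each array. Trpv6, a calcium channel, measured 0.21 ± 0.15 (SE).

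**Figure D4:**
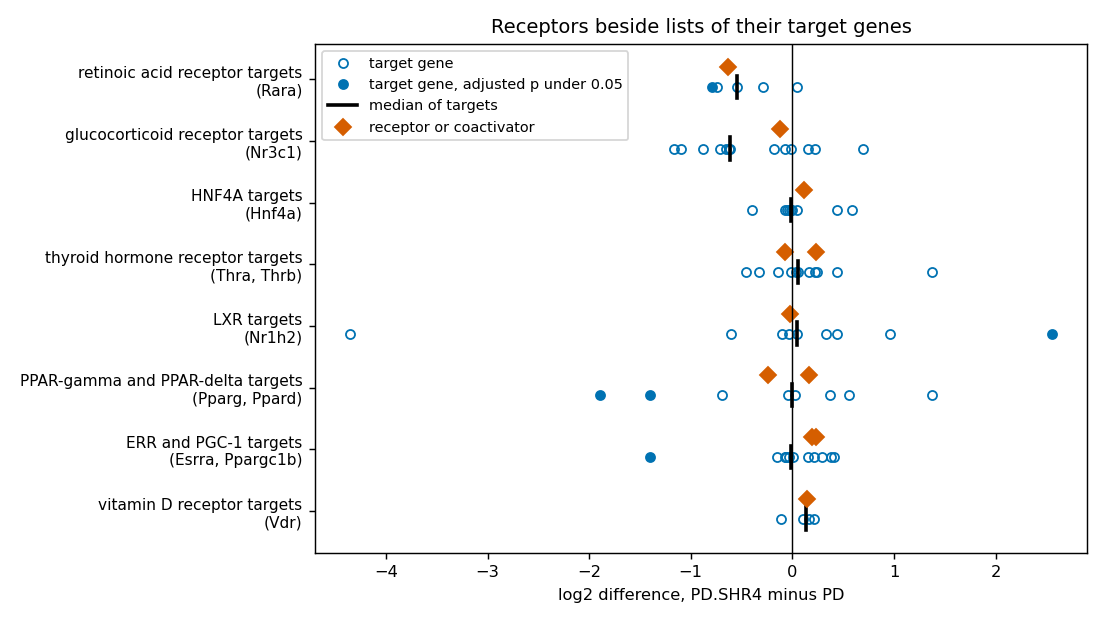
The log2 difference, PD.SHR4 minus PD (x axis), is shown for measured target genes (circles, filled where the adjusted p was under 0.05), their median (black line) and the receptors or coactivator among the members (diamonds), for 8 lists (y axis). Target medians range from -0.61 for the glucocorticoid list to 0.14 for the vitamin D list, and Scd at -4.35 and Abcg5 at 2.56 are the outermost points.

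The targets of the ROR and REV-ERB receptors have no measured receptor among the members, since Rora and Nr1d2 were not analysed here. Of 8 such targets 2 fell and 6 did not pass, with a median of -0.87. Bmal1, the clock activator, had a log2 difference of -3.58 ± 0.23 (SE; adjusted p = 0.00737) and Nfil3, a clock repressor, of -1.54 ± 0.20 (SE; adjusted p = 0.0414). Insig2, which retains SREBP, measured -1.06 ± 0.20 (SE; adjusted p = 0.0855) and Clock -0.69 ± 0.15 (SE; adjusted p = 0.121). Of 15 measured clock genes, 4 rose and 2 fell, against 0.273% and 0.659% of all probe sets. The risers were the period genes Per3 (2.45 ± 0.15 SE; adjusted p = 0.00737) and Per2 (1.85 ± 0.18 SE; adjusted p = 0.0243), the deubiquitinase Usp2 (1.44 ± 0.14 SE; adjusted p = 0.0243) and the clock output factor Dbp, which was named after its values were seen (4.01 ± 0.54 SE; adjusted p = 0.0457). Leaving out PD array 1 gave 4 rises and 1 fall, leaving out PD array 2 gave 2 and 1, and leaving out PD array 3 gave 1 and 1. With either PD.SHR4 array left out, none of the 6 calls was kept. The list's median was 0.52, and it was 0.20 without PD.SHR4 array 2 and 0.85 without PD.SHR4 array 1. Bmal1 did not pass without either PD.SHR4 array, and Nfil3 did not pass when any array was left out. The labels give no time of day for the liver collection, and its part in these values was not tested.

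Of 18 measured enzymes and binding proteins of receptor ligands, 2 rose and 16 did not pass, against 0.273% of all probe sets that rose. Aldh1a1, which oxidises retinal to retinoic acid, rose by 1.78 ± 0.19 (SE; limma, adjusted p = 0.0344) and Cyp17a1, a steroid hydroxylase, by 2.28 ± 0.27 (SE; adjusted p = 0.0392). Rdh16, a retinol dehydrogenase, measured 1.01 ± 0.33 (SE; adjusted p = 0.256), and the list's median was 0.082 and turned to -0.0083 without PD array 1. Aldh1a1 did not pass without PD array 1 or 3, Cyp17a1 without PD array 2 or 3, and neither without either PD.SHR4 array. In the retinoid group Aldh1a1 therefore had the higher level in PD.SHR4 while Rara, which did not pass, had the lower value, each on its own scale. Its relative Aldh1a3 measured -0.053 ± 0.14 (SE). Another relative, Aldh1a2, measured -0.0073 and lay below the lower quartile in each array.

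Markers of other cells in liver were read beside Rara, Rxrg and Foxa1, the members with lower values in PD.SHR4 at an unadjusted p under 0.05. Of 8 lymphocyte markers 4 were measured, all below 0 with a median of -0.79, and their summed linear signal was 246 to 342 in PD and 142 to 147 in PD.SHR4. Of 7 macrophage markers 3 were measured, with a median of -0.71 and sums of 1875 to 2149 in PD and 1647 to 1738 in PD.SHR4. Tyrobp and Adgre1 measured -0.80 and -0.71. Clec4f, the brightest of the 3 and most of the sum, measured -0.079 with overlapping arrays. Of 4 neutrophil markers 2 were measured, with a median of -0.74 and sums of 142 to 184 and 99.0 to 110.2. Of 7 stellate cell and fibroblast markers 6 were measured, with a median of -0.22 3 of the 6 below 0, and sums of 747 to 1039 and 673 to 689.

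For cholangiocytes 2 of 5 markers were measured, at 114 to 168 in PD and 124 to 129 in PD.SHR4. All 5 adipocyte markers were measured, at 630 to 736 and 664 to 751, and 4 of 6 hepatocyte markers, at 28699 to 30607 and 30699 to 30914. The adipocyte sum was mostly Cidec, at log2 values of 9.21 to 9.46, while Fabp4, Plin1, Lep and Adipoq reached at most 4.48. No marker of endothelial or erythroid cells on these lists was measured on a probe set of its own. None of the measured markers passed limma's test singly. At an unadjusted p under 0.05 there were 4 lymphocyte, 2 macrophage, 2 neutrophil and 2 stellate markers, all lower in PD.SHR4. The 1 cholangiocyte marker with such a p, Krt19, was higher, at 0.50, and the other, Epcam, measured -0.23. Of all probe sets, 13.8% had such a p. All measured markers but 1, an adipocyte marker, exceeded the lower quartile of at least 1 array. The part of these cells in the members' values was not tested.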

How the data were processed

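The deposited table holds 1 log2 expression value per probe set and array, which the authors computed with RMA in Affymetrix Expression Console (core-gene analysis), per the labels. RMA subtracts background, normalises by quantiles and summarises probes, which narrows differences of dim probe sets. The submitters' processing notes also name Partek. Versions and genome build: not given in the sources used here. There are no detection calls, and 5 arrays limit the precision.

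Gene names came from GEO's annotation of the platform. Of 8797, 7603 had 1 symbol, 409 several and 785 none, and IDs of 7584 matched the RefSeq gene table (GRCr8). Where a gene had several probe sets the brightest was used. The strains were compared by lmFit and eBayes of limma 3.58.1 (R 4.3.3), with all 5 arrays, no covariate and two-sided p-values adjusted over all probe sets. Over all of them, 82 passed, 24 higher and 58 lower in PD.SHR4. The fit was also run on simulated data. These had independent normal noise with the fit's own variances, so that run cannot speak for pooled arrays.

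The members and lists were chosen with earlier results of these data known. Named were every member, up to 4 genes of each other list by smallest p, and Nr1d1, Nr1i3, Ppara, Bmal1, Egr1 and Cd36 as reference genes. Dbp, Rxra, Nr1h3, Nr1h4, Crabp2, Aldh1a2, Aldh1a3 and some cell markers were named beyond this rule. Each array was left out in turn, and other alternatives were a replicate block, an intensity trend with robust shrinkage, 2 scalings and leaving out the dimmest 25% of probe sets.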

Additional observations from a re-analysis of the deposited data

How the results depend on the processing

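No member passed the threshold in any of the 10 alternative fits, and 4 or 5 had an unadjusted p under 0.05 in each. The members' median log2 difference ran from 0.012 without PD.SHR4 array 2 to 0.13 after median centring. Foxa3 measured 0.82 to 1.10 (adjusted p 0.0619 to 0.513), Foxa1 -0.62 to -0.47 (0.0819 to 0.578), Rara -0.72 to -0.56 (0.0884 to 0.585) and Rxrg -0.84 to -0.61 (0.0921 to 0.565). Signs turned for 10 members with small differences, and the cause was not tested. Over the fits without 1 array, Nr4a2 ran from -0.049 to 0.10, Pparg from -0.040 to 0.37, Nr2c1 from -0.18 to 0.16, Nr2f1 from -0.19 to 0.13, Nr2f6 from -0.16 to 0.091, Nr3c1 from -0.26 to 0.071, Nr3c2 from -0.089 to 0.33 and Foxa2 from -0.41 to 0.041. After quantile normalisation once more Thra was at 0.0098, Nr1h2 at 0.0064, Nr2c1 at 0.051 and Nr2f6 at 0.0046, and after centring Nr1h2 was at 0.031, Nr2c1 at 0.0052, Nr2f1 at 0.027 and Nr2f6 at 0.019. Members without overlap numbered 13 to 24 over 8 alternatives that could change the count, and this check was added after seeing the data. The count rises by construction when fewer arrays are compared. The share of all probe sets without overlap was 35% after quantile normalisation once more and 34.5% after centring. For the other alternatives that share was not computed.

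The whole-table count of 82 was 28, 55 and 18 when PD arrays 1, 2 and 3 were left out in turn, and 0 without PD.SHR4 array 1 or 2 (limma; 737 and 710 at an unadjusted p under 0.05), where the remaining array was assumed to vary like PD. It was 163 with the replicate block, 151 with trend and robust shrinkage and 149 without the dimmest probe sets. Calls that were lower in PD.SHR4 were 70.7% of the 82, 58.0% of 112 after quantile normalisation once more and 59.0% of 100 after centring. Nothing in the labels says that the replicate numbers pair arrays, and deviations of same-numbered arrays correlated at 0.050 and 0.082. With the replicate block Foxa3 measured 0.93, and no member passed. The alternative of another probe set per gene was not run, since no member had more than 1.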
